A study of Mus musculus with 15 samples.

Results

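The clustered histone genes encode the proteins that package DNA, and their mRNA was followed here in RAW264.7 cells, a mouse macrophage cell line, 24 h after activation with bacterial lipopolysaccharide (LPS). Members were the genes with a symbol beginning H1f, H2ac, H2bc, H3c, H4c or Hist, taken only from probe sets that list a single gene symbol, with 1 probe set per gene. This gave 29 of the 22180 genes with such a probe set: 8 of class H1, 6 of H2A, 8 of H2B, 7 of H4 and 0 of H3. The symbols, and not measured values, chose the members.

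The 5 groups had 3 arrays each, 1 per experiment. Cells received LPS (1.0 µg/mL) with 5.0 µM 13-HDHEA, with 5.0 µM 16-HDHEA, with both compounds at 2.5 µM each (the combined treatment), or with vehicle, and a group without LPS received PBS and vehicle. Compounds or vehicle were given 30 min before LPS, and ethanol was 0.1% in all 5 groups. The HDHEAs are hydroxylated ethanolamides of the omega-3 fatty acid DHA and differ from each other in the position of the hydroxyl group. RAW264.7 is 1 virus-transformed line that divides in culture, so histone levels without LPS are those of a dividing macrophage line.

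Histone proteins come in 5 classes. H2A, H2B, H3 and H4 form the nucleosome core around which DNA is wound, and H1 binds the DNA between nucleosomes. Most of their genes lie in a few clusters, are copied into mRNA chiefly in S phase, and give mRNA that ends in a stem-loop in place of a poly(A) tail. Such mRNA is degraded when DNA synthesis stops. Per the labels, target was prepared from total RNA with a whole-transcript assay. How much of the histone signal came from transcripts without a poly(A) tail was not tested.

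The symbol rule was checked against the genome annotation. Of the 27 members with a RefSeq promoter entry (mouse build GRCm38.p6), 21 lie on chromosome 13 and 3 on chromosome 3, which hold the histone clusters. H1f8 and H1f10 on chromosome 6 and H1f7 on chromosome 15 lie outside these clusters, although their symbols meet the rule. H2bc21 and H4c14 were not among the promoter entries.

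Sequences before the gene starts are shown because the classes carry different short elements there, and the results below are given by class. For H1 genes the AAACACA box is in capitals, for H2B genes the octamer ATTTGCAT, and for H4 genes GGTCC or its reverse complement GGACC. Each line holds the 150 bases before the annotated start, 5′ to 3′ on the gene's strand.
H1f2: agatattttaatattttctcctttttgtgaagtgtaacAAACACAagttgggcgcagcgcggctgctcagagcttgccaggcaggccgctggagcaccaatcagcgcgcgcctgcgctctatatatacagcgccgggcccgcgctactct
H1f3: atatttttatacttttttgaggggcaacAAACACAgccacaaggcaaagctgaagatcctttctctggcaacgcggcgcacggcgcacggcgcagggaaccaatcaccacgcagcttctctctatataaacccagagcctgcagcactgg
H1f5: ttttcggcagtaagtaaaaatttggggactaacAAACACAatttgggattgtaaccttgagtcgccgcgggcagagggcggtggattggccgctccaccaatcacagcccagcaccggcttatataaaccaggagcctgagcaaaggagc
H2bc3: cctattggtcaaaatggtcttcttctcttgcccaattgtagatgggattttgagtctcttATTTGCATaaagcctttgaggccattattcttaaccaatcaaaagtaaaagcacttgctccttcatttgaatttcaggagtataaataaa
H2bc12: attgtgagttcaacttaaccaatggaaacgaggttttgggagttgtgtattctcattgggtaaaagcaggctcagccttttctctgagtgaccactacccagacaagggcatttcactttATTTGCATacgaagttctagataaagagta
H2bc18: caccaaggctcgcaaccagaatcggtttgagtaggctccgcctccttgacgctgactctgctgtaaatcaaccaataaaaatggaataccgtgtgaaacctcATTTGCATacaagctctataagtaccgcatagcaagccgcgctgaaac
H4c9: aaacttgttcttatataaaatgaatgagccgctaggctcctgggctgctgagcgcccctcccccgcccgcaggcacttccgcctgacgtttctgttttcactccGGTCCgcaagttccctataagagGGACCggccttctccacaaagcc
H4c12: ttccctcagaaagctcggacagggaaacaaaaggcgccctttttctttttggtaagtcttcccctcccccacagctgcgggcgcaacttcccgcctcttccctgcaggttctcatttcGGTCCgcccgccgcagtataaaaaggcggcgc
H4c17: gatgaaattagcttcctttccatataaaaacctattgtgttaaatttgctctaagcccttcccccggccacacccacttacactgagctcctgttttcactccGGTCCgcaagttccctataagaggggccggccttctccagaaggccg
In GRCm38.p6 these windows are H1f2 at chr13:23738657-23738806 (plus strand), H1f3 at chr13:23554882-23555031 (plus strand), H1f5 at chr13:21780626-21780775 (minus strand), H2bc3 at chr13:23746584-23746733 (plus strand), H2bc12 at chr13:22035671-22035820 (plus strand), H2bc18 at chr3:96269550-96269699 (plus strand), H4c9 at chr13:22041363-22041512 (minus strand), H4c12 at chr13:21750554-21750703 (minus strand) and H4c17 at chr13:21811596-21811745 (plus strand). These 9 were chosen from genes that were lower with LPS in the comparison given below and hold the motif of their class. Their fall therefore says nothing about the motifs. H2bc14 and H4c8 met the same terms and are not shown, while H1f1 and H2bc9 were lower without the motif of their class.

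Motifs were searched as exact letters on both strands of the 250 bases before the start, and were chosen after the data had been seen. The octamer ATTTGCAT, the letters bound by the POU factor Oct-1, was found in 5 of 7 H2B promoters (71.4%) and 3 of 6 H2A promoters, against 1.6% of the 32851 promoters in the table. It was found in 0 of 8 H1 and 0 of 6 H4 promoters. The octamers of H2ac1 and H2ac12 are the same bases as those of H2bc1 and H2bc12, counted from the other start. The H1 box AAACACA was found in 4 of 8 H1 promoters, 2 of 7 H2B promoters (28.6%), 1 of 6 H2A promoters and 0 of 6 H4 promoters, against 6.25% of all promoters. Its first base lay 112 bases before the start in H1f2, 122 in H1f3, 117 in H1f5 and 114 in H1f6, so the positions fell close together. In H2bc14 it lay at a like place, 110 bases before the start. In H2bc1 and H2ac1 the H1 box lay elsewhere, at 61 and 226, which are the same bases counted from either start. H1f1, and H1f7, H1f8 and H1f10 outside the clusters, did not hold it.

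The 5-letter element GGTCC is common, at 39.8% of all promoters, and was found in 5 of 6 H4 promoters (83.3%). CCAAT, also common at 33.8%, was found in 6 of 6 H2A, 7 of 7 H2B and 6 of 8 H1 promoters but in 1 of 6 H4 promoters. TATAAA was found in 13 of 27 members (48.1%), against 12.4% of all promoters. Some of these matches lay far from the start, as in H2bc12 and H2bc22, at 198 and 212 bases on the opposite strand. H4c9 and H4c17 shared an unbroken stretch of 38 bases that holds GGTCC. H2ac12 and H2bc12 are transcribed away from each other with 178 bases between their starts, and H2bc1 and H2ac1 with 281. These pairs share part of the windows searched, and a match in the shared part is counted for both genes. A match is a run of letters and was not tested as a binding site.

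**Figure D1:**
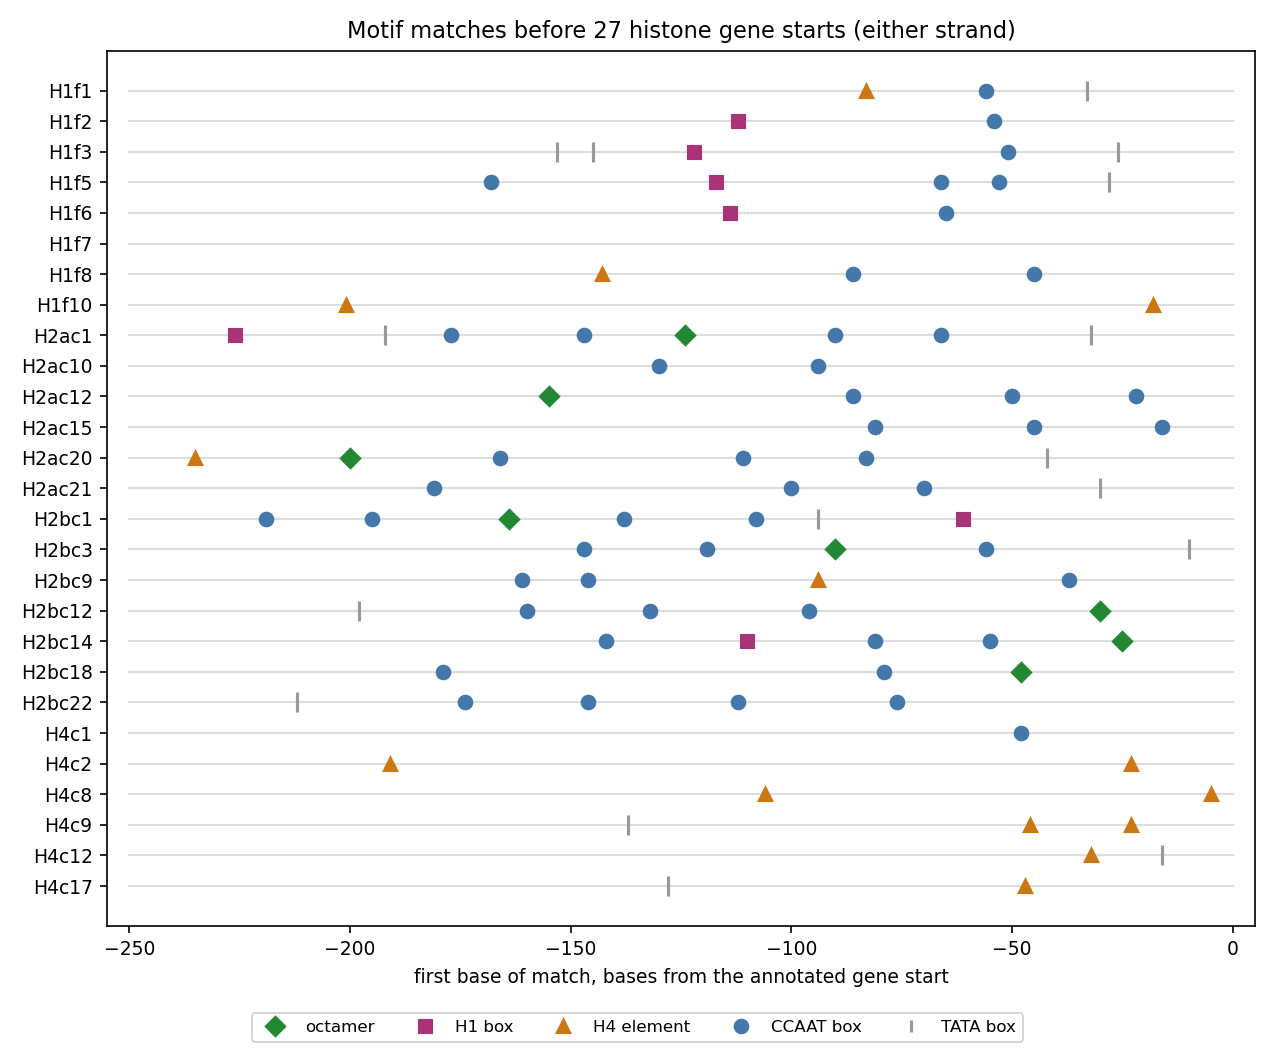
Positions of 5 short motifs in the 250 bases before the annotated start of 27 histone genes (x axis, bases from the start; rows, genes by class; symbols, the first base of an exact match on either strand). The H1 box lies 112 to 122 bases before H1f2, H1f3, H1f5 and H1f6 and 110 before H2bc14, octamers stand in H2A and H2B rows, and H4 rows hold 1 CCAAT match.

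Array values were log2 expression per probe set, so a difference of 1 is a doubling. A gene was tested where it exceeded the array's own 40th percentile (3.16 to 3.22) on at least 3 arrays, which 15468 genes did. Of the 29 histone genes, 22 passed: 7 of H1, 4 of H2A, 6 of H2B and 5 of H4. The 7 below this limit were H1f6, H2ac12, H2ac15, H2bc1, H2bc22, H4c1 and H4c2. H4c17 passed only through the 3 arrays without LPS, so that it had to differ between the groups. H4c8 passed on the same 3 and on 1 array of the combined treatment (3.31), and without those 3 it would not have been tested. Both are kept in the counts below. Arrays of 1 group correlated at 0.991 or higher with each other, and macrophage marker genes averaged 10.69 to 10.87 on arrays with LPS and 9.99 to 10.18 on those without, against at most 4.77 for fibroblast, lymphocyte, neutrophil, epithelial and endothelial markers. None of the 4 lymphocyte markers measured passed the limit. Single markers of other cell types differed between LPS with vehicle and no LPS by limma: S100a8 of neutrophils by 1.30 (adjusted p = 0.00536), Pdgfra of fibroblasts by 0.96 (0.0472), and the endothelial genes Cdh5 by 0.42 (0.0412) and Vwf by -0.49 (0.0136). Their part in the histone results was not tested.

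LPS with vehicle was set against no LPS to show what activation did to histone mRNA. Of the 22 tested histone genes 17 were lower with LPS and 0 were higher, with limma's test adjusted by the Benjamini-Hochberg method over all tested genes (adjusted p from 1.47e-06 to 0.00953 among the 17). Over all 15468 genes, 16.3% were lower and 13.5% higher. The median log2 difference of the 22 was -1.36, with a range of -2.48 to 0.00, and the median over all tested genes was 0.0002. All 6 H2B genes were lower, 3 of 4 H2A, 4 of 5 H4 and 4 of 7 H1. The H4 count and the 17 include H4c17 and H4c8, which were tested only because of the arrays without LPS. In bulk RNA, fewer cells in S phase and less histone mRNA per cell cannot be told apart.

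Without the limit on dim genes the direction was the same. With all 22180 genes in the fit, 19 of the 29 members were lower and 0 higher, against 10.5% of genes lower. The median log2 difference over the 29 was -1.12. H2ac15 and H4c1 were the 2 added, and both lay below the 40th percentile with LPS. 17 of the 22 tested genes had all 3 arrays of LPS with vehicle below all 3 arrays without LPS, against 22.2% of all tested genes. For 14 of the 22, all 12 arrays with LPS lay below all 3 without it, against 16.1% of all tested genes. H4c17 and H4c8 are in both counts, although they passed the limit through the arrays without LPS.

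**Figure D2:**
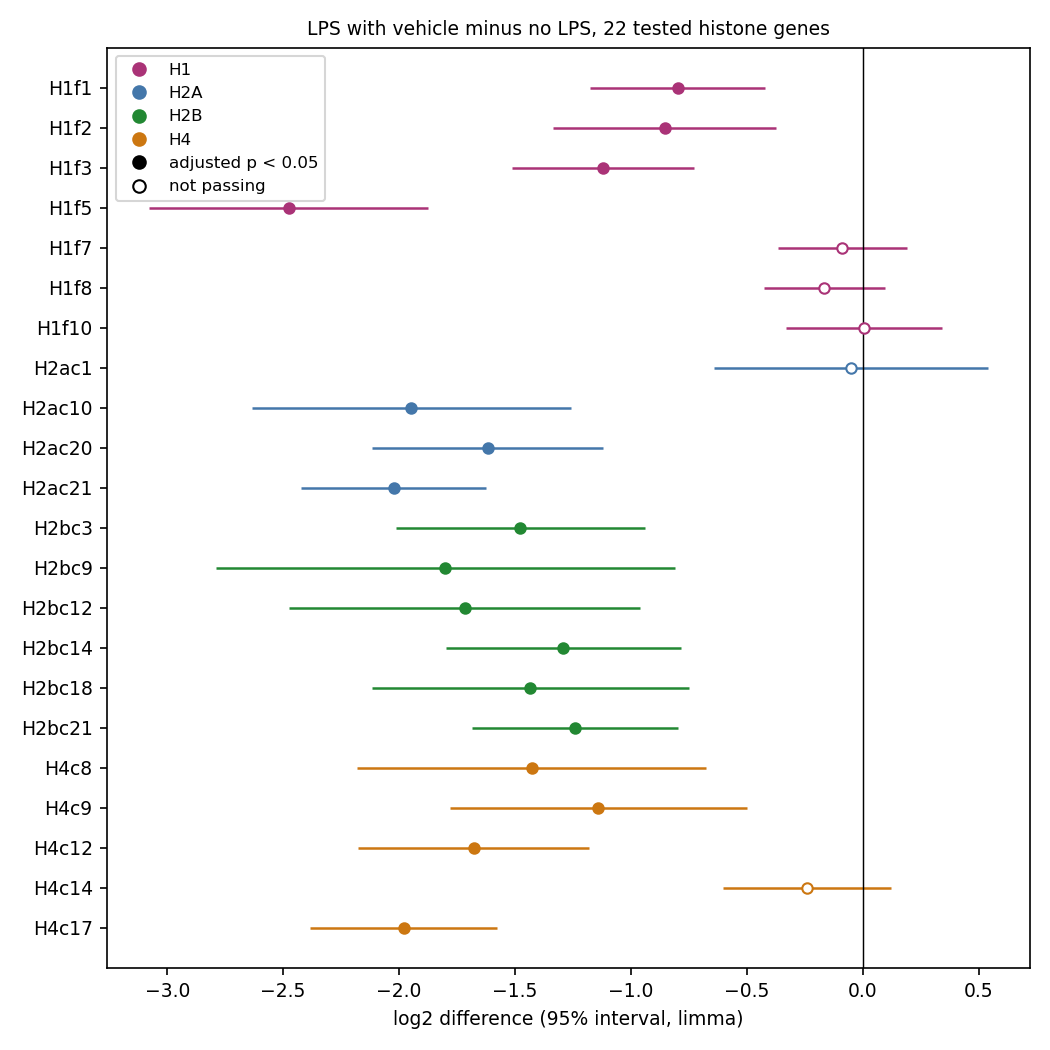
Log2 difference of LPS with vehicle minus no LPS for the 22 tested histone genes (points; bars are 95% intervals from limma; filled points have an adjusted p under 0.05; colours mark the class). The 17 filled points lie between -2.48 and -0.80, and the 5 open ones, H1f7, H1f8, H1f10, H2ac1 and H4c14, between -0.24 and 0.00.

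Of the linker histones, the 4 tested H1 genes of the chromosome 13 cluster fell with LPS and the 3 outside the clusters did not pass the test. H1f5 showed the largest difference of any tested histone gene. It read 6.02, 6.46 and 6.46 with 13-HDHEA, 6.04, 6.40 and 6.55 with 16-HDHEA, 5.41, 6.58 and 6.58 with the combined treatment, 5.80, 6.25 and 6.39 with LPS and vehicle, and 8.34, 8.64 and 8.89 without LPS. All arrays with LPS lay well below those without. The difference of LPS with vehicle minus no LPS was -2.48 (SE 0.280, adjusted p = 1.02e-05, limma), a 5.57-fold lower level.

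H1f3 read 5.17, 5.28 and 5.16 with 13-HDHEA, 5.25, 5.43 and 5.05 with 16-HDHEA, 5.01, 5.39 and 5.58 with the combined treatment, 4.96, 5.04 and 4.63 with LPS and vehicle, and 5.58, 6.26 and 6.15 without LPS. The highest array of the combined treatment and the lowest without LPS met, and the vehicle arrays were clear of those without LPS. The difference was -1.12 (SE 0.183, adjusted p = 0.000286, limma).

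H1f2, the H1 member with the highest mean over all arrays, read 7.34, 7.88 and 7.40 with 13-HDHEA, 7.27, 7.72 and 7.18 with 16-HDHEA, 7.59, 7.86 and 7.38 with the combined treatment, 7.44, 7.64 and 7.27 with LPS and vehicle, and 8.32, 8.75 and 7.83 without LPS. The third array without LPS lay within the range of the HDHEA arrays, and within each experiment the array without LPS was the highest. The difference was -0.85 (SE 0.224, adjusted p = 0.00953, limma).

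H1f1 read 3.51, 3.75 and 3.56 with 13-HDHEA, 3.58, 4.002 and 3.75 with 16-HDHEA, 3.40, 3.60 and 3.74 with the combined treatment, 3.63, 3.75 and 3.73 with LPS and vehicle, and 4.15, 4.37 and 4.98 without LPS. The groups with and without LPS did not overlap, although the probe set is dim. The difference was -0.80 (SE 0.175, adjusted p = 0.00296, limma).

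The H1 genes outside the clusters are of other kinds: H1f7 is a linker histone of spermatids, H1f8 of oocytes, and H1f10 is made in many tissues outside S phase. All 3 were dim and close to the 40th percentile. H1f7 averaged 2.80 ± 0.173 with LPS and vehicle and 2.89 ± 0.125 without LPS (SD, n = 3 each). H1f8 averaged 3.14 ± 0.180 with LPS and vehicle and 3.30 ± 0.0553 without LPS. H1f10 read 3.29, 3.61 and 3.39 with 13-HDHEA, 3.34, 3.60 and 3.45 with 16-HDHEA, 3.21, 3.39 and 3.21 with the combined treatment, 3.34, 3.14 and 3.12 with LPS and vehicle, and 3.38, 2.76 and 3.45 without LPS. The vehicle arrays lay within the range of those without LPS, with a difference of 0.00 and a 95% interval of -0.33 to 0.34. Signal over background limits what these 3 can show.

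Of the H2A genes, H2ac10, H2ac20 and H2ac21 fell, and H2ac1 did not pass the test. H2ac10, the H2A member with the highest mean over all arrays, read 8.73, 8.95 and 9.41 with 13-HDHEA, 8.57, 9.08 and 9.40 with 16-HDHEA, 8.29, 9.71 and 9.45 with the combined treatment, 8.53, 8.96 and 9.21 with LPS and vehicle, and 10.71, 10.83 and 10.99 without LPS. The highest array with LPS was well clear of the lowest without it. The difference was -1.95 (SE 0.321, adjusted p = 0.000312, limma), a 3.85-fold lower level.

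H2ac21 had the smallest adjusted p of the histone genes. It read 6.57, 7.01 and 7.18 with 13-HDHEA, 6.85, 7.09 and 6.88 with 16-HDHEA, 6.64, 7.17 and 7.10 with the combined treatment, 6.71, 6.90 and 7.12 with LPS and vehicle, and 8.69, 8.87 and 9.23 without LPS. The 12 arrays with LPS lay together, far below the other 3. The difference was -2.02 (SE 0.186, adjusted p = 1.47e-06, limma). A second, dimmer probe set of H2ac21 averaged 4.005 ± 0.0959 with LPS and vehicle and 4.73 ± 0.121 without LPS (SD, n = 3 each). Its difference was -0.73 (adjusted p = 0.000488, limma on all probe sets), the same direction at a smaller size.

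H2ac20 read 7.29, 7.61 and 7.68 with 13-HDHEA, 7.37, 7.77 and 7.70 with 16-HDHEA, 6.92, 7.95 and 7.76 with the combined treatment, 7.09, 7.61 and 7.57 with LPS and vehicle, and 8.88, 9.01 and 9.24 without LPS. The groups with and without LPS were again apart. The difference was -1.62 (SE 0.232, adjusted p = 9.25e-05, limma). H2ac1, a testis histone, read 3.24, 3.05 and 3.002 with 13-HDHEA, 2.57, 3.34 and 2.49 with 16-HDHEA, 2.68, 3.68 and 3.16 with the combined treatment, 3.13, 2.98 and 3.34 with LPS and vehicle, and 2.67, 3.46 and 3.47 without LPS. Its groups overlapped near the 40th percentile, and the difference was -0.05 (95% interval -0.64 to 0.54).

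The H2B genes fell together, with log2 differences of -1.80 to -1.24. H2bc12 read 6.26, 6.87 and 6.76 with 13-HDHEA, 6.20, 6.98 and 7.06 with 16-HDHEA, 5.69, 7.19 and 7.10 with the combined treatment, 6.56, 6.86 and 7.26 with LPS and vehicle, and 8.40, 8.54 and 8.89 without LPS. The first array of each LPS group was the lowest of its group, and none came near the arrays without LPS. The difference was -1.72 (SE 0.352, adjusted p = 0.00178, limma), a 3.29-fold lower level.

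H2bc3 read 5.81, 6.37 and 6.13 with 13-HDHEA, 6.21, 6.33 and 6.66 with 16-HDHEA, 5.41, 6.59 and 6.37 with the combined treatment, 5.97, 6.27 and 6.34 with LPS and vehicle, and 7.71, 7.46 and 7.84 without LPS. The groups with and without LPS did not overlap, and the difference was -1.48 (SE 0.250, adjusted p = 0.000391, limma). H2bc21, which lies outside the promoter table, read 5.08, 5.50 and 5.16 with 13-HDHEA, 5.45, 5.27 and 5.87 with 16-HDHEA, 5.27, 5.86 and 6.10 with the combined treatment, 5.08, 5.22 and 5.24 with LPS and vehicle, and 6.46, 6.67 and 6.14 without LPS. The highest array of the combined treatment came just under the lowest without LPS. The difference was -1.24 (SE 0.206, adjusted p = 0.000336, limma).

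H2bc9 read 3.38, 3.83 and 3.49 with 13-HDHEA, 2.71, 4.65 and 3.80 with 16-HDHEA, 3.49, 4.25 and 4.14 with the combined treatment, 3.23, 2.70 and 3.68 with LPS and vehicle, and 4.08, 5.73 and 5.21 without LPS. The lowest array without LPS lay within the range of the 16-HDHEA and combined arrays. The difference was -1.80 (SE 0.460, adjusted p = 0.00810, limma), the widest error of the histone genes. Its mean with LPS and vehicle, 3.21, lay just above the 40th percentile. H2bc18 averaged 6.58 ± 0.291 with LPS and vehicle and 8.01 ± 0.345 without LPS, and H2bc14 3.49 ± 0.485 and 4.78 ± 0.358 in the same order (SD, n = 3 each). In both genes all 12 arrays with LPS lay below those without. H2bc14 is dim, and its lowest array with LPS (3.18) lay close to the 40th percentile.

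Of the H4 genes, H4c8, H4c9, H4c12 and H4c17 fell and H4c14 did not pass the test. H4c12 read 8.62, 8.74 and 9.09 with 13-HDHEA, 8.34, 8.97 and 8.94 with 16-HDHEA, 8.32, 9.16 and 9.03 with the combined treatment, 8.28, 8.69 and 8.83 with LPS and vehicle, and 10.22, 10.12 and 10.49 without LPS. The groups with and without LPS were well apart. The difference was -1.68 (SE 0.232, adjusted p = 6.58e-05, limma), a 3.20-fold lower level.

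H4c17 read 2.23, 2.50 and 2.18 with 13-HDHEA, 2.34, 2.38 and 2.50 with 16-HDHEA, 2.15, 2.46 and 2.23 with the combined treatment, 2.22, 2.10 and 2.02 with LPS and vehicle, and 3.74, 4.67 and 3.86 without LPS. With LPS every array lay below the 40th percentile, so the level there is only a bound. H4c17 was at least 1.89-fold lower with LPS and vehicle than without LPS (adjusted p = 1.96e-06, limma). H4c8 read 2.21, 2.80 and 2.74 with 13-HDHEA, 2.14, 2.47 and 2.84 with 16-HDHEA, 2.79, 2.19 and 3.31 with the combined treatment, 2.30, 2.71 and 2.52 with LPS and vehicle, and 3.53, 4.86 and 3.43 without LPS. The arrays without LPS were the 3 highest, and H4c8 was at least 1.70-fold lower with LPS and vehicle by the same bound (adjusted p = 0.00630, limma). H4c9 averaged 4.69 ± 0.284 with LPS and vehicle and 5.83 ± 0.220 without LPS (SD, n = 3 each), a difference of -1.14.

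H4c14 stood apart from these. It read 4.45, 4.87 and 4.93 with 13-HDHEA, 5.00, 4.67 and 5.10 with 16-HDHEA, 4.90, 5.24 and 5.21 with the combined treatment, 5.08, 5.00 and 4.54 with LPS and vehicle, and 5.05, 5.04 and 5.25 without LPS. The 3 arrays with 13-HDHEA lay below the 3 without LPS, and each of the other LPS groups overlapped those without LPS. The difference of LPS with vehicle minus no LPS was -0.24, with a 95% interval of -0.60 to 0.12 (adjusted p = 0.335, limma). Unlike the dim genes that did not pass, H4c14 exceeded the 40th percentile on all 15 arrays.

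**Figure D3:**
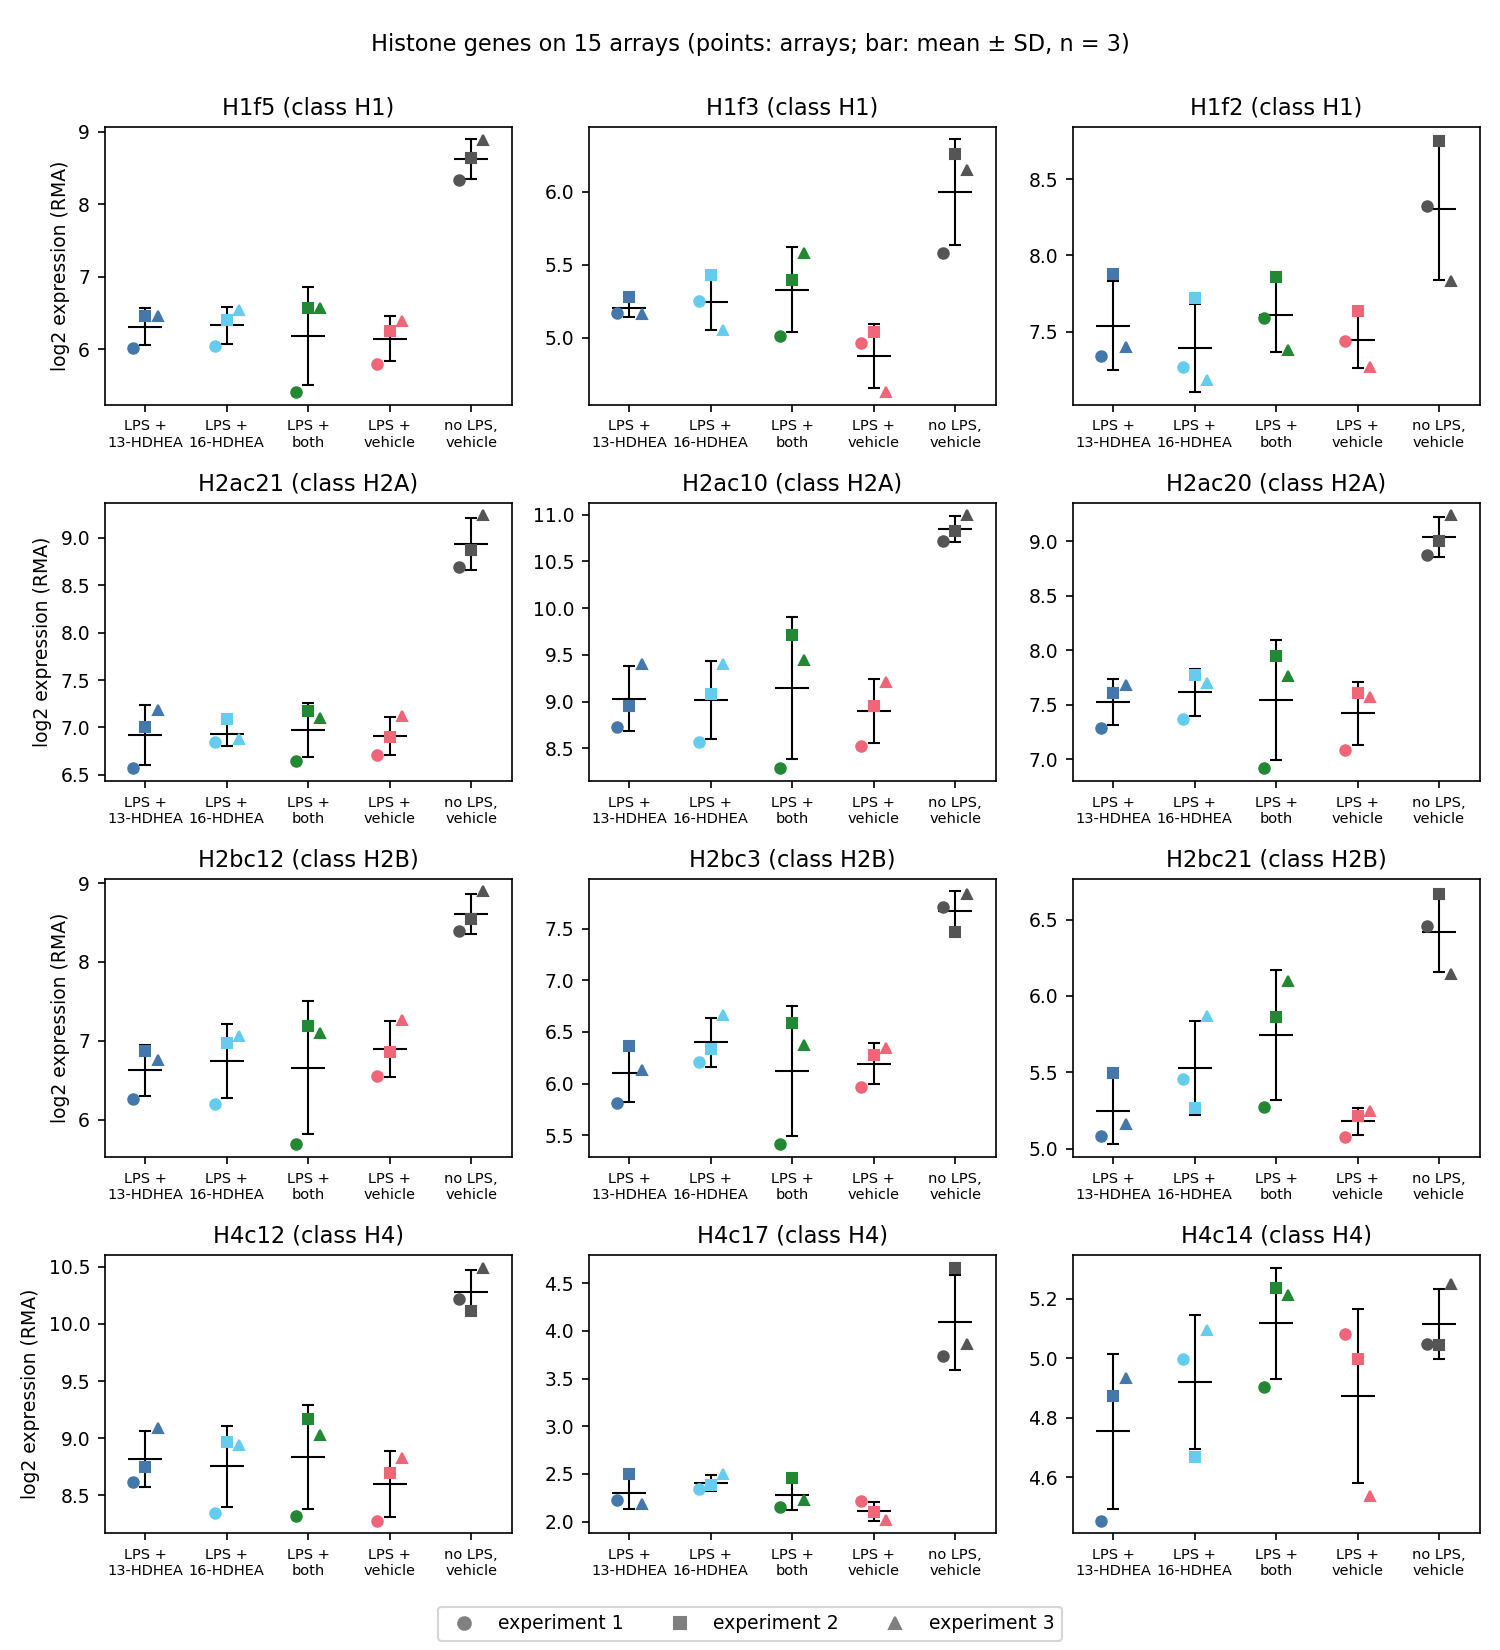
Log2 expression of 12 histone genes, 3 per class, on the 15 arrays (points; symbols mark the experiment; bars are the mean ± SD, n = 3; each panel has its own axis, which does not start at 0). In all panels but those of H1f3, H1f2 and H4c14 the 12 arrays with LPS lie below the 3 without it, and in many panels the circle of experiment 1 is the lowest of its group.

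The same direction was seen in each experiment. The median log2 difference of LPS with vehicle minus no LPS over the 22 genes was -1.20 in experiment 1, -1.22 in experiment 2 and -1.51 in experiment 3. The share of all tested genes that were lower in all 3 was not computed, so no count of histone genes is given. The dim H1f7, which did not pass the test, was lower in all 3, at -0.084, -0.141 and -0.038. Class medians were -0.80 for H1, -1.78 for H2A, -1.45 for H2B and -1.43 for H4. The H4 median is that of H4c8, which has only a bound. With H1f8, H2ac1, H4c8 and H4c17 at their bounds the H4 median was -0.92 and the median over all 22 genes -1.19, while those of H1, H2A and H2B were as given. The class medians rest on 4 to 7 genes each, and differences between classes were not tested.

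Histone genes differ little in coding sequence within a class, and many probe sets of the array list several histone symbols. They name no single gene and stand outside the 29, but they hold the only class H3 values. Of 38 such probe sets 6 had values identical to another, which left 35 distinct ones. In a fit of all 27512 probe sets that passed the limit, where 10.6% were lower with LPS, 30 of the 35 were tested, 27 were lower and 0 higher, with a median log2 difference of -1.40. For class H3, 8 of 9 tested probe sets were lower, with a median of -1.54. 1 H3 probe set passed the limit only on the arrays without LPS and so had to differ. Without it, 7 of 8 H3 probe sets, and 26 of 29 of all classes, were lower. H2A gave 9 of 9, H2B 6 of 7 and H4 3 of 4. Some H2A probe sets and an H4 probe set exceeded the limit on few arrays with LPS. They too were tested only because of the arrays without LPS. They remain in the 26 of 29, in the 9 of 9 of H2A and in the 3 of 4 of H4. Counts without them were not made. Near-identical copies can also bind probes of the 29 single-symbol probe sets, so the value of any 1 histone gene is uncertain.

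Genes that act with the histones were followed in 4 lists. For S phase and DNA replication, 35 of 35 tested genes were lower with LPS (against 16.3% of all tested genes). Their median was -1.38, next to -1.36 for the histone genes. Pola1, a subunit of the polymerase that starts DNA strands, was at -1.25, E2f2, an S phase transcription factor, at -1.78, Mcm2, a subunit of the replicative helicase, at -1.49, and E2f7, a repressor of the same family, at -1.97. The largest adjusted p of the 35 was 0.0192 (limma). How far the fall of the histone genes follows from that of S phase genes was not tested.

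Of the histone variants and histones outside the clusters, 5 of 7 tested were lower with LPS, against 16.3% of all tested genes. Cenpa, the histone H3 variant of centromeres, differed by -2.16 and H2az2, a replacement H2A, by -1.83. H2ax, which marks broken DNA when phosphorylated, differed by -1.28 and H4f16 by -1.70. H2az1 was also lower, by -0.80. Macroh2a1, a variant of silent chromatin, was at 0.07 and H2aj at -0.12, and neither passed the test. H2az1, Macroh2a1 and H2aj were named after their values were seen.

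Of 24 tested genes for histone transcription and for cutting the mRNA 3′ end, 11 were lower (against 16.3% of all tested genes), 3 higher (against 13.5%) and 10 did not pass. The share that was higher, 3 of 24, was near that of all genes. Slbp, which binds the stem-loop, differed by -0.96 (SE 0.0977), Casp8ap2, needed for histone transcription, by -0.89, Eri1, a nuclease that trims the stem-loop end, by -0.65, and Dhx9, a helicase, by -0.83. The 3 higher genes were Tut7 at 0.44, Lsm11 at 0.44 and Lsm10 at 0.29. Lsm10 and Lsm11 are subunits of the U7 particle that directs the cut, and Tut7 adds uridines to RNA ends. These 3 were named after their values were seen.

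Of 19 tested histone chaperones and assembly factors, 14 were lower (against 16.3% of all tested genes), 3 higher (against 13.5%) and 2 did not pass. The share that was higher, 3 of 19, was near that of all genes. Mms22l differed by -1.45 and Chaf1b and Chaf1a, subunits of the complex that deposits histones on new DNA, by -1.16 and -1.41. Daxx, a chaperone of the replacement histone H3.3, was higher by 1.22 (SE 0.118, adjusted p = 2.30e-06, limma). The 2 Asf1 genes, which hand H3 and H4 to the assembly machinery, differed in opposite directions. Asf1b was at -1.56 (SE 0.195) and Asf1a at 0.29 (SE 0.0877, adjusted p = 0.0225, limma). Ipo4, an importer of H3 and H4, was at 0.58. Asf1a, Asf1b and Ipo4 were singled out after their values were seen.

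The HDHEA treatments were each set against LPS with vehicle to ask whether the compounds altered the response. No histone gene passed limma's adjusted test in any of these comparisons, with a smallest adjusted p of 0.9998 over the tested members. With 13-HDHEA 0.00646% of all tested genes were called in either direction, with 16-HDHEA 0% and with the combined treatment 0%. At an unadjusted p under 0.05, 2 of the 22 histone genes passed with 13-HDHEA (4.27% of all genes), 2 with 16-HDHEA (2.97%) and 2 with the combined treatment (3.48%), all higher. The 3 comparisons share the vehicle arrays and so are not independent.

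The median log2 difference from vehicle over the 22 genes was 0.08 with 13-HDHEA (range -0.26 to 0.43), 0.17 with 16-HDHEA (-0.35 to 0.51) and 0.14 with the combined treatment (-0.24 to 0.76). Over all genes the medians were -0.01, 0.00 and 0.00 in the same order. These medians hung on single arrays: without the first vehicle array, the 13-HDHEA median was -0.022 and the 16-HDHEA median 0.030. With 1 array left out in turn, the combined median lay between -0.01 and 0.26. The 95% intervals of single genes reached from -1.02 to 1.74 over the 3 comparisons, with the lower end from H2bc12 and the upper from H2bc9. The median SE over the 22 genes was 0.232.

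By unadjusted p, H1f7 and H1f8 came first in both single treatments. H1f7 read 3.32, 3.19 and 3.20 with 13-HDHEA, 3.17, 3.02 and 3.27 with 16-HDHEA, 3.27, 3.18 and 2.77 with the combined treatment, 2.88, 2.61 and 2.93 with LPS and vehicle, and 2.96, 2.75 and 2.97 without LPS. The single-treatment arrays lay above the vehicle arrays, close to the 40th percentile throughout. The vehicle mean lay below the 40th percentile, and measured from that percentile the mean with 13-HDHEA was 1.05-fold higher, an estimate. No fold is given for 16-HDHEA, where the mean lay below it too. Neither comparison passed the adjusted test.

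H1f8 read 3.65, 3.24 and 3.34 with 13-HDHEA, 3.56, 3.23 and 3.49 with 16-HDHEA, 3.32, 3.39 and 3.36 with the combined treatment, 3.34, 3.09 and 2.99 with LPS and vehicle, and 3.34, 3.24 and 3.33 without LPS. Vehicle and treated arrays overlapped. By the same bound, the level was at least 1.18-fold higher than vehicle with 13-HDHEA and at least 1.19-fold higher with 16-HDHEA, and neither comparison passed the adjusted test.

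With the combined treatment H2bc21 and H1f3 had the smallest p. H2bc21 was 0.57 above vehicle (95% interval 0.12 to 1.01) and H1f3 0.45 above it (0.06 to 0.85), from the array values given above. Within experiments the H2bc21 difference was 0.20, 0.64 and 0.85, and the H1f3 difference 0.05, 0.36 and 0.96. Both were positive in all 3 experiments, and neither passed the adjusted test. The combined values of H2bc21 stayed below those without LPS.

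At the matched dose of 5.0 µM, 13-HDHEA was set against 16-HDHEA, the positional isomer. No histone gene was called, against 0.00646% of all genes, and 0 of 22 had an unadjusted p under 0.05, against 3.1% of all genes. The median log2 difference of 13-HDHEA minus 16-HDHEA was -0.04, with a range of -0.30 to 0.30, and 95% intervals of single genes reached from -1.14 to 0.89. H2bc21 differed by -0.28 (-0.73 to 0.16) and H2bc3 by -0.30 (-0.84 to 0.24), the 2 smallest p. These intervals do not show that the isomers act alike.

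**Figure D4:**
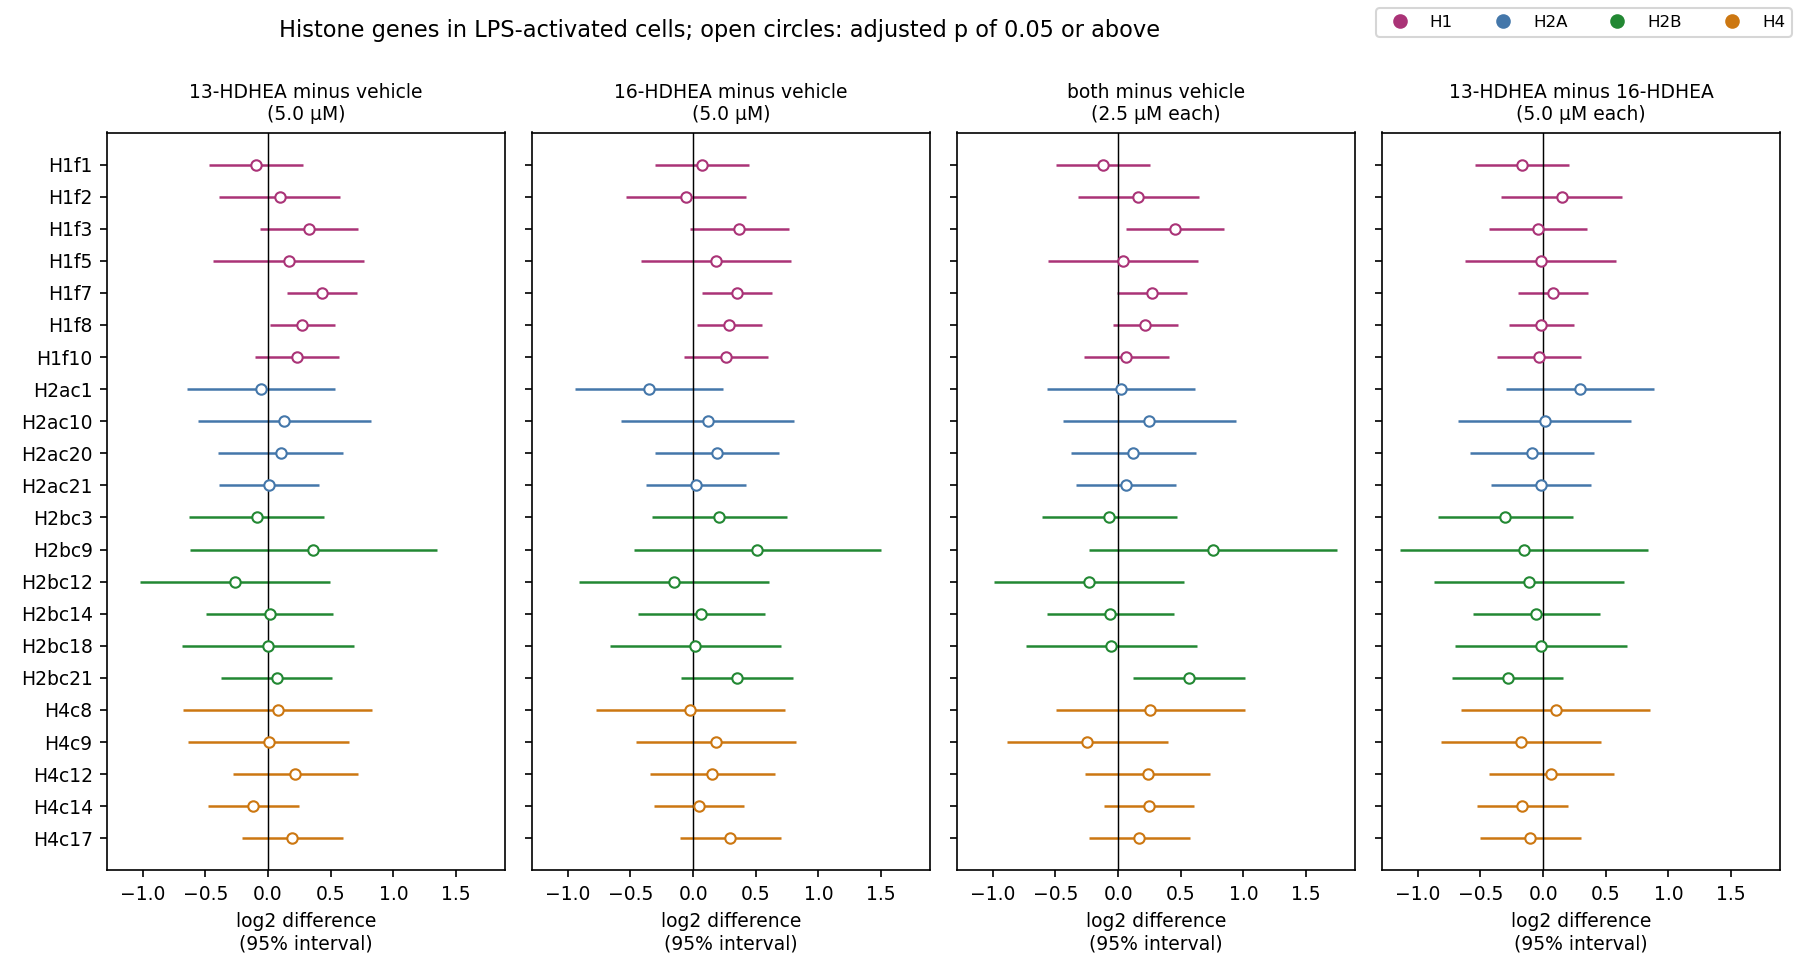
Log2 differences of the 22 tested histone genes in cells with LPS, in 4 panels: 13-HDHEA, 16-HDHEA and the combined treatment each minus vehicle, and 13-HDHEA minus 16-HDHEA (points; bars are 95% intervals from limma; open points did not pass the adjusted test; colours mark the class). All points are open, and they lie between -0.35 and 0.76.

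Experiment 1 had lower histone levels than experiments 2 and 3. Each gene was set against its mean in the other experiments of the same group. The median log2 difference over the 22 genes was -0.29 with 13-HDHEA, -0.24 with 16-HDHEA and -0.60 with the combined treatment. It was -0.22 with LPS and vehicle and -0.33 without LPS. The median over all tested genes was between -0.0037 and 0.011. In the combined treatment H2bc12 read 5.69 in experiment 1 against 7.19 and 7.10 in the others, and H2ac10 8.29 against 9.71 and 9.45.

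S phase genes showed this in the LPS groups and not without LPS. Their median was -0.23, -0.23, -0.34 and -0.25 in the 4 LPS groups, in the order above, and 0.02 without LPS. On the array without LPS of experiment 1 the median histone gene stood 0.68 above its mean over all arrays, against 1.11 on the other 2 arrays without LPS, while S phase genes stood at 1.15, 1.09 and 1.13. Each experiment holds 1 array per group, so this is a difference between single arrays and was not tested.

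**Figure D5:**
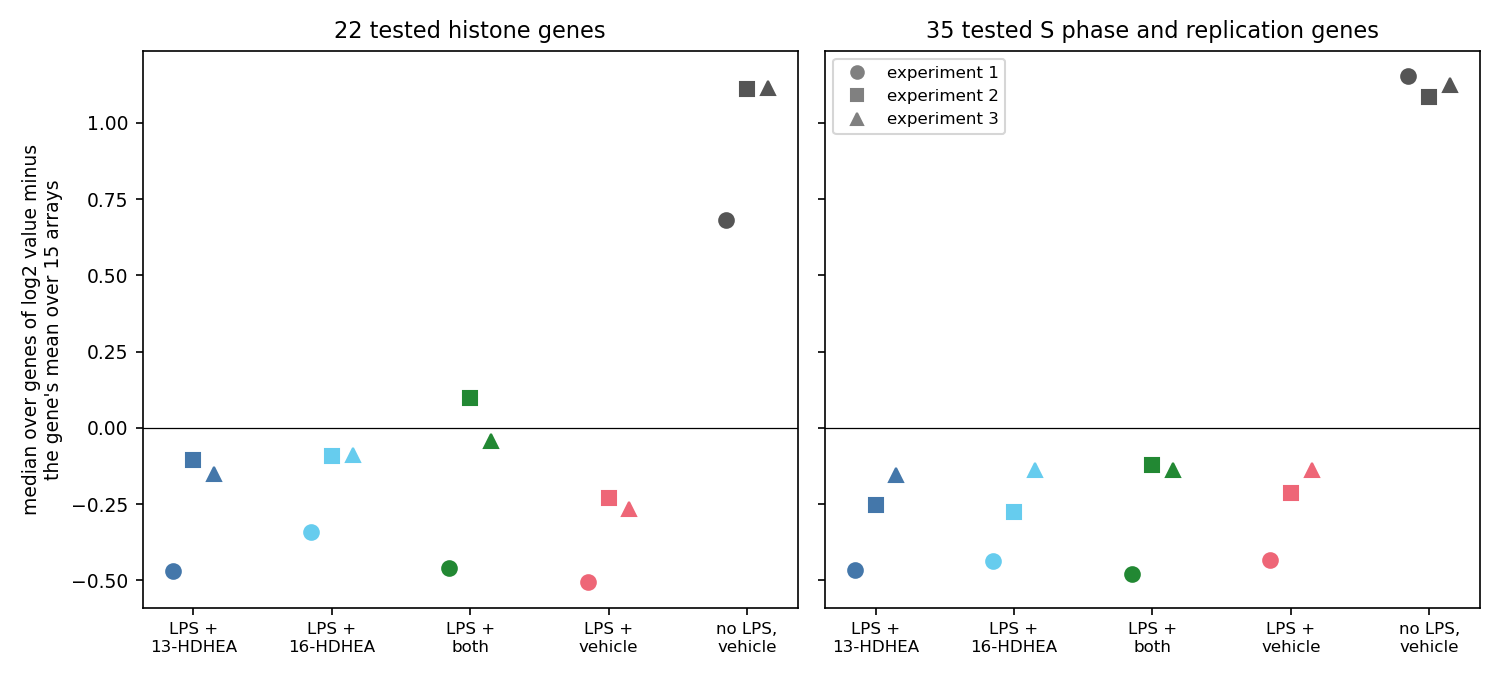
Median over genes of the log2 value minus the gene's own mean over 15 arrays, for the 22 tested histone genes (left) and 35 S phase genes (right), by group (points are arrays; symbols mark the experiment). Histone medians lie between -0.51 and 0.10 on the 12 arrays with LPS and between 0.68 and 1.11 on those without, and the circle of experiment 1 is the lowest point of every group in the left panel.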

How the data were processed

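Total RNA was measured on 15 arrays. The authors deposited 1 log2 value per probe set and array, made with RMA per the submitters' processing notes. RMA corrects background, quantile-normalizes and summarises probes. Its version is not given in the sources used here. It hides any change common to most genes and compresses changes of dim probe sets. The gene table of the platform names 25335 of the 41345 probe sets, 23521 with 1 symbol and 1814 with several. For each gene the probe set with the highest mean was kept, which left 22180 genes, 15468 of them tested (above the 40th percentile of the array on at least 3 arrays). All 29 members were found in the RefSeq gene table, and 27 in its promoter table.

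Tests used limma 3.58.1 in R 4.3.3, with group means over 15 arrays, 10 residual degrees of freedom (prior 3.59). They were two-sided, with Benjamini-Hochberg adjustment over all tested genes and calls at an adjusted p under 0.05. The code was tested on simulated data. Where a group's mean was under its 40th percentile (averaged over its arrays), a fold is a bound measured from that percentile. Such a bound takes no account of the error of the means, so for H1f7 and H1f8 with HDHEA it is called an estimate. Groups came from the sample labels. Each replicate number has 1 experiment identifier in the labels, so numbers pair arrays across groups: deviations from group means correlated at 0.0835 to 0.404 over 30 same-numbered pairs, above 0.1 in 28, and 15 of 15 arrays correlated best with their own number. Replicates are separate experiments of 1 cell line, and their number limits the precision.

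Array values were given in full for the brightest member of a class, its 3 lowest and its highest LPS difference, for the tested H1 genes, and for the 2 smallest p of each HDHEA comparison. List genes were named by smallest p, up to 4 a list, with the additions stated. Members and lists were chosen with earlier results of these data known. Other settings tried were the experiment as a block, other filters, scalings and variance models, the mean of a gene's probe sets, only the arrays compared, all probe sets in 1 fit (chosen after seeing the data) and leaving out each array.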

Additional observations from a re-analysis of the deposited data

How the results depend on the processing

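Of 670 alternative values of 46 results, 657 kept their direction and side of the threshold or moved by less than the spread between experiments. 13 moved further, and 0 were scored as reversed. With 1 array left out, the medians of 13-HDHEA and the combined treatment minus vehicle, and of 13-HDHEA minus 16-HDHEA, could still change sign. With the experiment as a replicate block, 17 histone genes were lower with LPS and 0 were higher, as without it, and the block changed no call of a histone gene, with smallest adjusted p of 0.668, 1.00, 0.939 and 0.999 in the HDHEA comparisons. A filter at the 60th percentile left 14 histone genes lower, and 2 H4 genes lower in place of 4, since fewer genes were tested. With 1 array left out, the count of lower histone genes was 17 each time and 0 genes were called with any HDHEA. The median with LPS then ran from -1.52 to -1.12, with -1.12 when the second array without LPS was left out. It ran from -0.022 to 0.20 for 13-HDHEA, from 0.030 to 0.30 for 16-HDHEA, and from -0.13 to 0.035 for 13-HDHEA minus 16-HDHEA. Array medians differed by -0.06 between LPS with vehicle and no LPS. With arrays centred, which removes this, 17 histone genes were lower and their median was -1.30. Signal over background limits H1f7, H1f8, H1f10, H2ac1, H2bc9, H4c8 and H4c17, which lay near or below the 40th percentile with LPS. H2bc14 came close to it on some arrays with LPS.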
